A study of Mus musculus with 4 samples.

Results

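The subunits and inhibitors of the transcription factor NF-kB were followed in Th17 cells (helper T cells producing interleukin 17) of mice without the kinase PRAK. The 9 genes were those of the deposited table's 17921 whose symbol is Nfkb1, Nfkb2, Rel, Rela, Relb, Nfkbia, Nfkbie, Bcl3 or Tnfaip3, and all 9 were in the table. Per the labels, naive CD4+ T cells from 2 PRAK KO mice and 2 wild-type (WT) mice were kept in vitro for 72 h under conditions that polarise them to Th17 cells, and all cells were then taken for RNA. The libraries are called KO 1, KO 2, WT 1 and WT 2 after the mouse numbers, with 1 library per mouse. Both genotypes had the same polarisation. The labels give no strain, age or sex, and do not say how the PRAK gene was disrupted.

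NF-kB proteins bind DNA as dimers of 5 subunits. Rela, Rel and Relb carry activation domains, while Nfkb1 and Nfkb2 encode long precursors that are cut to short DNA-binding subunits and whose uncut forms hold other subunits in the cytoplasm. Inhibitors of the IkB family, among them the products of Nfkbia and Nfkbie, keep dimers out of the nucleus until the IKK kinases mark them for destruction. The non-canonical route, through the kinase NIK, acts on the Nfkb2 precursor. Several of these genes are themselves NF-kB targets, so that the inhibitors form a feedback loop. In T cells the Rel product, c-Rel, is known for its part in Il2 and Foxp3 expression.

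The promoters of these genes are shown because kB sites, the DNA letters that NF-kB dimers bind, are well known in the feedback genes of the family. Windows of 300 bases (250 before and 50 after an annotated start, RefSeq, GRCm38.p6) matched 7 of the 9 genes: Nfkb2 with 3 starts, Tnfaip3 with 2, and Rel, Rela, Nfkbia, Nfkbie and Bcl3 with 1 each. The motifs searched on both strands were 10 letters long, GGGNN followed by TTTCC and GGGNN followed by TTCCC. They can overlap each other, and the second can match both strands at 1 place. A match was found in 5 of the 7 genes and in 7 of their 10 windows. Over all 32851 windows of that length 3.24% held a match, and 3.73% of the 27025 genes with a window had one. The 4 windows below are, in order, chr19:46304487-46304786 on the plus strand, chr11:23770920-23771219 on the minus strand, chr12:55492598-55492897 on the minus strand and chr7:19822706-19823005 on the minus strand, written along the gene's strand with every match in capitals.
Nfkb2: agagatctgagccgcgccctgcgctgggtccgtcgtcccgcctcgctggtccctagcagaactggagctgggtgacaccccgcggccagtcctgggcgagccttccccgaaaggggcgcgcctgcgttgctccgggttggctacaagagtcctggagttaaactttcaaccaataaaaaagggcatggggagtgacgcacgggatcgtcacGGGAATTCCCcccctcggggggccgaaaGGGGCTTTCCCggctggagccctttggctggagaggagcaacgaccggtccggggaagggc
Rel: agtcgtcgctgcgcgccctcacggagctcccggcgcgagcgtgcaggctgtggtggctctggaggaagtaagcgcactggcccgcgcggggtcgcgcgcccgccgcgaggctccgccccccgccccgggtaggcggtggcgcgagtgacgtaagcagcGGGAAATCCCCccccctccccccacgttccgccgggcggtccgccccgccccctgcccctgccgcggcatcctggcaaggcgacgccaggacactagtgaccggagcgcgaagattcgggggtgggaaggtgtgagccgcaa
Nfkbia: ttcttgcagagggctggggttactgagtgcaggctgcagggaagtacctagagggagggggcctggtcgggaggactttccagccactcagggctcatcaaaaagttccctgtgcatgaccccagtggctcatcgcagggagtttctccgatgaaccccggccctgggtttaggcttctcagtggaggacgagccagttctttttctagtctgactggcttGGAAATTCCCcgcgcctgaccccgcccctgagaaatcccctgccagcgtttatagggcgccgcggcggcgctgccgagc
Bcl3: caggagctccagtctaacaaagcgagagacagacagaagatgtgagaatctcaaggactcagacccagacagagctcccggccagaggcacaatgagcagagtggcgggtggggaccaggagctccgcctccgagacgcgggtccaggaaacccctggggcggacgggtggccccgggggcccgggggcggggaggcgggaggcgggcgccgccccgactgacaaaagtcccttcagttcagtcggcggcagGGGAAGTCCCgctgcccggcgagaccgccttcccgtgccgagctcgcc
The Nfkb2 window, the first of its 3 starts, held a match 39 bases before the start that reads the same on both strands, and an overlapping pair whose first base lay 11 bases before it. The first matching base lay 92 bases before the start in Rel, 29 before it in Nfkbia and 12 before the first of the 2 starts in Tnfaip3, and at the third transcribed base in Bcl3. The other pair of Nfkb2 windows overlap and hold the same match. The windows of Rela and Nfkbie held neither motif. A match of letters is a description and not a measured binding site.

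**Figure D1:**
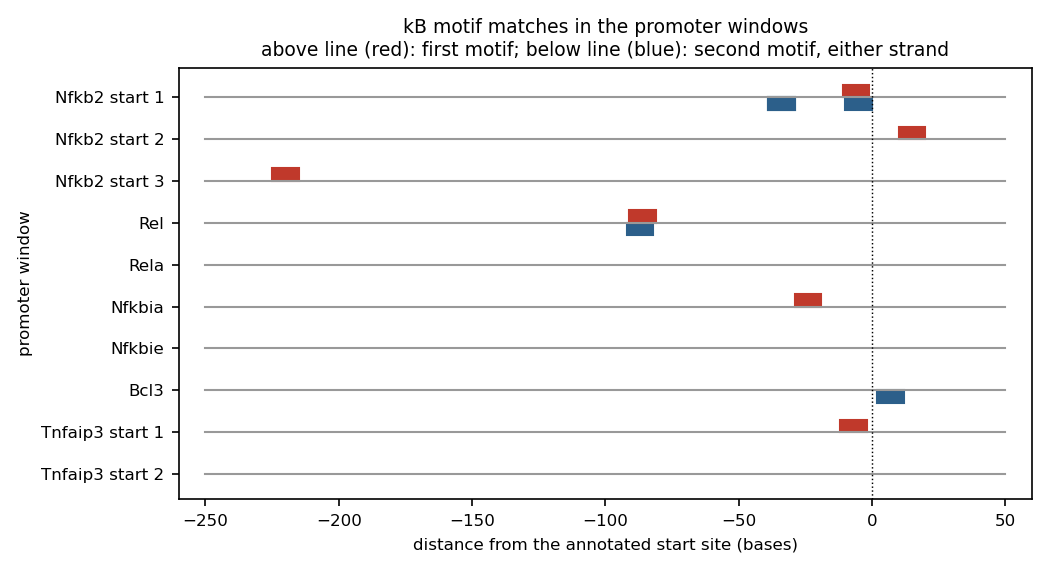
Positions of the kB motif matches in the 10 promoter windows of 7 genes, as the distance in bases from the annotated start (dotted line at 0). Red blocks above a line are the motif that ends in TTTCC and blue blocks below it the one that ends in TTCCC, on either strand, and 7 windows hold at least 1 match.

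Total expected counts lay between 19418012 and 20125124 per library. On log2 CPM the leading principal component (77.3% of the variance) split KO from WT, and the next one (18.8%) split the KO mice from each other. Between replicates the median absolute log2 difference per gene was 0.245 in KO cells and 0.106 in WT cells. Mapkapk5, the gene of PRAK, had 20.04 CPM (KO 1) and 21.6 CPM (KO 2), against 35.6 CPM (WT 1) and 38.4 CPM (WT 2) (log2 fold change -0.83, adjusted p = 0.0194 with edgeR's quasi-likelihood test, 0.103 without WT 1 and 0.188 without WT 2). It was thus lower in both KO libraries but far from 0, and a count over the whole gene does not tell intact from disrupted transcript. Of 12680 genes tested, 13.4% passed an adjusted p of 0.05, 5.14% higher and 8.23% lower in KO. The higher genes were 38.5% of the calls, or 51.5% with scaling by library size alone.

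In PRAK KO cells 3 of the 9 genes rose: the subunit genes Rel and Nfkb2 and the inhibitor gene Nfkbie. Nfkbia, Rela and Relb (higher in KO) and Bcl3 (lower) lay apart between the genotypes without passing the test. Nfkb1 and Tnfaip3 overlapped between the genotypes and did not pass. The 3 higher genes are 33.3% of the 9, beside 5.14% of all genes tested. With all libraries in the fit, none of the 9 passed as lower with edgeR or with DESeq2. At an unadjusted p under 0.05 there were 5 of the 9, 4 higher and 1 (Bcl3) lower, beside 31.7% of all genes tested. The median log2 fold change was 0.22 over the 9 genes and 0.02 over all genes tested. The libraries of the genotypes did not overlap for 7 of the 9, which is close to the 63.0% of all genes tested and is not a result about these genes.

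**Figure D2:**
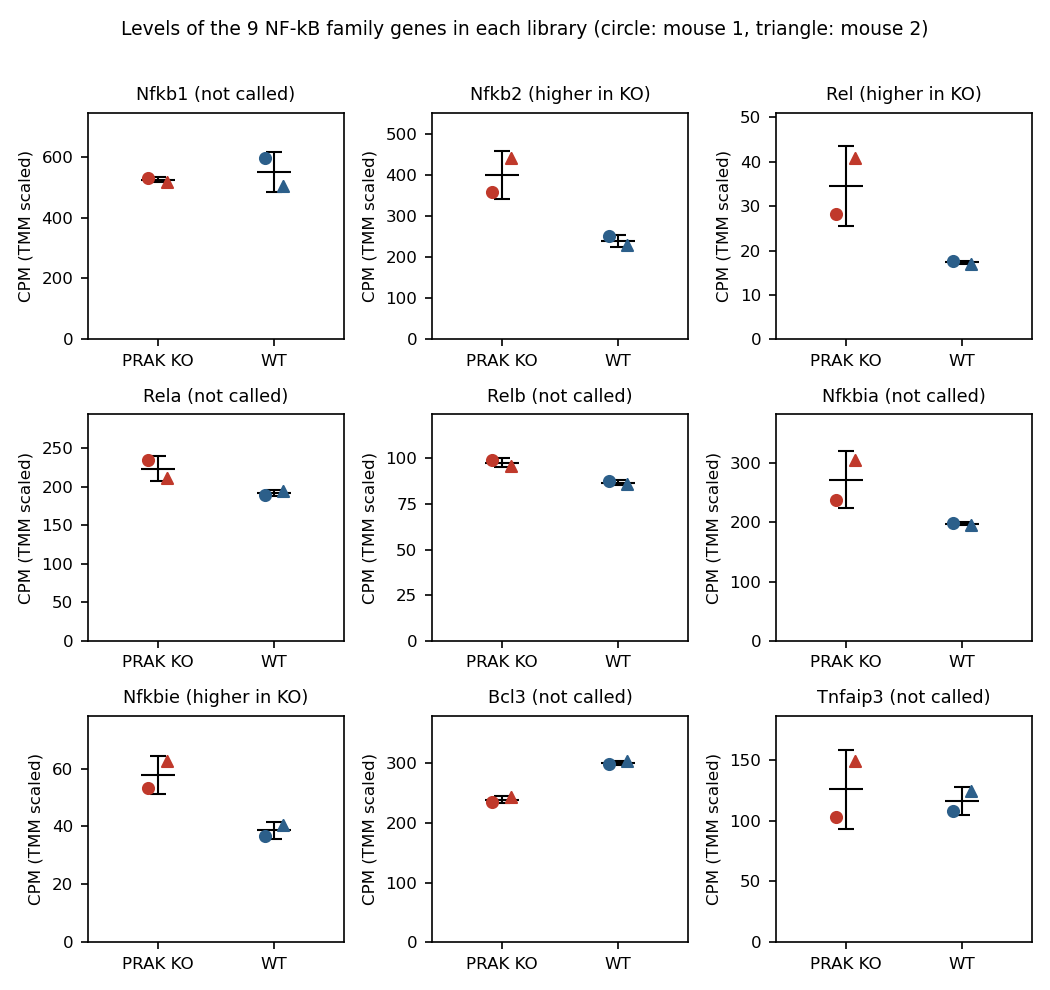
CPM with TMM scaling of the 9 genes in the 4 libraries, PRAK KO on the left and WT on the right (circle mouse 1, triangle mouse 2, black bar mean, whiskers SD, n = 2 each). Both KO libraries lie above both WT libraries for Nfkb2, Rel, Rela, Relb, Nfkbia and Nfkbie, both lie below for Bcl3, and the genotypes overlap for Nfkb1 and Tnfaip3.

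Rel, the gene of c-Rel (gene ID 19696, chromosome 11, 23736847 to 23770969, GRCm38.p6), had the largest fold of the 9. It had 28.2 CPM (KO 1) and 40.9 CPM (KO 2), against 17.6 CPM (WT 1) and 17.04 CPM (WT 2). Both KO libraries were above both WT libraries, and the KO mice were further from each other than the WT mice were. The mean was 34.5 ± 8.97 CPM in KO and 17.3 ± 0.385 in WT (SD, n = 2 each), or 0.99 ± 0.21 SE as a log2 fold change, with an adjusted p of 0.0377 in edgeR's quasi-likelihood test. Nfkb2, the precursor gene of the non-canonical route (gene ID 18034, chromosome 19, 46300994 to 46312400), had 360.2 CPM (KO 1) and 442 CPM (KO 2), against 251 CPM (WT 1) and 229 CPM (WT 2). The lower KO library was thus above the higher WT library. The means were 401 ± 58.0 CPM in KO and 239.9 ± 15.3 in WT, or 0.74 ± 0.15 SE on the log2 scale (adjusted p = 0.0356). In the GENCODE M21 annotation 299 exon bases of Nfkb2 are shared with Psd and 531 with a long non-coding RNA gene, both on the opposite strand. Psd stood at 14.7 ± 3.85 CPM in KO and 10.5 ± 0.296 in WT (SD, n = 2 each). Whether strand was kept is not given in the sources used here, so that reads of these stretches cannot be told apart.

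Nfkbie, which encodes the inhibitor IkB epsilon (gene ID 18037, chromosome 17, 45555700 to 45563169), also rose, but narrowly. Its level was 53.2 CPM in KO 1 and 62.5 in KO 2, against 36.6 in WT 1 and 40.7 in WT 2. The genotypes did not overlap, and the KO mice were further apart than the WT mice. The means were 57.9 ± 6.57 CPM in KO and 38.6 ± 2.87 in WT, or 0.58 ± 0.14 SE on the log2 scale (adjusted p = 0.0496).

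The calls of these 3 genes needed both WT libraries. Without WT 1 the adjusted p was 0.107 for Rel, 0.194 for Nfkb2 and 0.386 for Nfkbie, and without WT 2 it was 0.137, 0.327 and 0.246. With 1 WT library the lone sample is assumed to vary like the KO libraries, which were the more variable pair. Without KO 1 or KO 2 the lone KO library is assumed to vary like the WT libraries. Those were the less variable pair, and many more of all genes tested passed in such fits. The fold changes of Rel, Nfkb2 and Nfkbie kept their sign. Across the libraries left out they lay between 0.70 and 1.24 for Rel, 0.58 and 0.88 for Nfkb2, and 0.46 and 0.70 for Nfkbie (log2).

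Of the other subunits, Nfkb1, the precursor gene of the canonical route (gene ID 18033, chromosome 3, 135584655 to 135691969), had 529.7 CPM (KO 1) and 518 CPM (KO 2), against 596 CPM (WT 1) and 502 CPM (WT 2). The KO values lay between the WT values. Its log2 fold change was -0.07, with a 95% interval of -0.43 to 0.30 (adjusted p = 0.792), and its sign turned to 0.03 with scaling by library size alone. Rela, which encodes the activating subunit p65 (gene ID 19697, chromosome 19, 5637442 to 5648134), had 235 CPM (KO 1) and 212 CPM (KO 2), against 189 CPM (WT 1) and 194 CPM (WT 2) (log2 fold change 0.22, 95% interval -0.08 to 0.52, adjusted p = 0.270). Relb, the usual partner of the processed Nfkb2 product (gene ID 19698, chromosome 7, 19606217 to 19629438), had 99.4 CPM (KO 1) and 96.0 CPM (KO 2), against 87.9 CPM (WT 1) and 85.7 CPM (WT 2) (0.17, 95% interval -0.10 to 0.44, adjusted p = 0.330). For both genes the KO libraries were above the WT libraries by a margin that did not pass the test, and both intervals include 0. Across the libraries left out the log2 fold change of Rela lay between 0.14 and 0.29.

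The inhibitor gene Nfkbia, which encodes IkB alpha (gene ID 18035, chromosome 12, 55489409 to 55492647), had 238 CPM (KO 1) and 306 CPM (KO 2), against 199.6 CPM (WT 1) and 196 CPM (WT 2). The KO libraries were both higher, and they differed from each other by more than KO 1 differed from WT 1. The means were 272 ± 48.3 CPM in KO and 198 ± 2.53 in WT, with a log2 fold change of 0.46 ± 0.16 SE, a 95% interval of 0.07 to 0.85 and an adjusted p of 0.112, so the gene did not pass. The log2 fold change of Nfkbia was 0.63 without KO 1, 0.26 without KO 2, 0.47 without WT 1 and 0.45 without WT 2. Bcl3, an atypical IkB protein that acts in the nucleus with dimers of the short subunits (gene ID 12051, chromosome 7, 19808462 to 19822824), was the one gene of the 9 with lower values in both KO libraries than in both WT libraries. It had 235 CPM (KO 1) and 243 CPM (KO 2), against 298 CPM (WT 1) and 303 CPM (WT 2). The means were 239.0 ± 5.32 CPM in KO and 301 ± 3.60 in WT, with a log2 fold change of -0.33 ± 0.11 SE, a 95% interval of -0.62 to -0.04 and an adjusted p of 0.117. Bcl3 had a log2 fold change of -0.30 without KO 1, -0.36 without KO 2, -0.34 without WT 1 and -0.32 without WT 2. An antisense gene shares 161 exon bases with it. Tnfaip3, which encodes the ubiquitin-editing enzyme A20 that shuts off signalling to IKK (gene ID 21929, chromosome 10, 19000910 to 19015410), had 103 CPM (KO 1) and 149 CPM (KO 2), against 108 CPM (WT 1) and 124 CPM (WT 2). The KO values lay on both sides of the WT values (log2 fold change 0.12, 95% interval -0.39 to 0.62, adjusted p = 0.733). The fold change was 0.36 without KO 1 and -0.18 without KO 2.

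**Figure D3:**
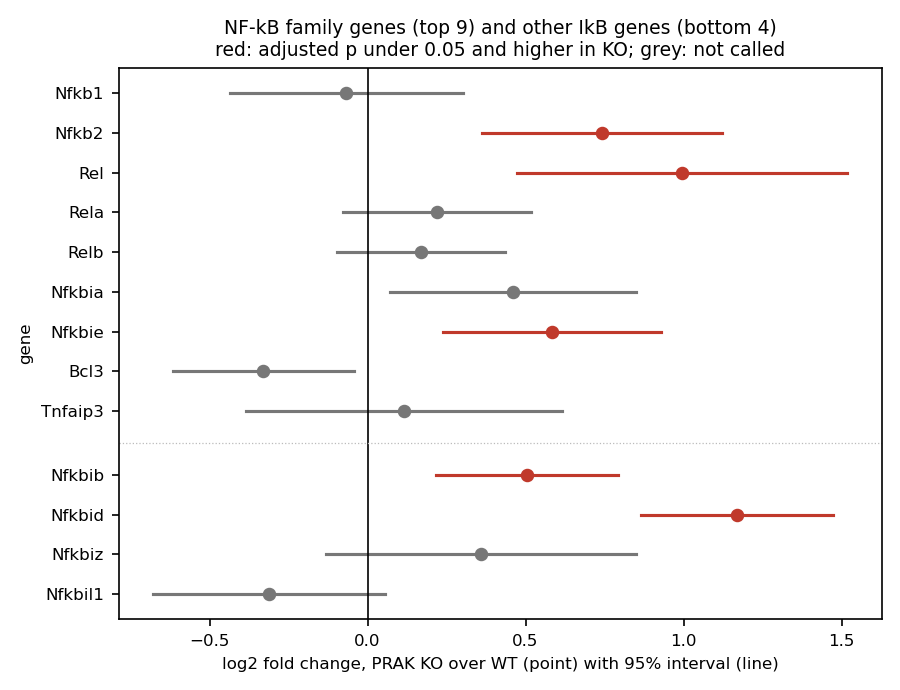
Log2 fold change of PRAK KO over WT with its 95% interval for the 9 genes and, below the dotted line, the other 4 genes of the IkB family. Red genes passed an adjusted p of 0.05, all of them higher in KO, and the intervals of Nfkb1, Rela, Relb, Tnfaip3, Nfkbiz and Nfkbil1 include 0.

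Levels between genes were compared in TPM, which is scaled to transcript length. In KO cells Nfkbia was the highest at 337 ± 44.1 TPM, followed by Bcl3 (255 ± 6.19), Nfkb1 (254 ± 15.4) and Nfkb2 (247 ± 23.5), and these last 3 did not differ beyond their spread, with Rela next at 170.4 ± 19.7. In WT cells Bcl3 was the highest at 299.6 ± 2.93 TPM, followed by Nfkb1 (249 ± 33.4) and Nfkbia (229 ± 8.17), which overlapped, and then by Nfkb2 (137 ± 11.7) and Rela (136 ± 0.0990), which overlapped as well. Below them the order was the same in both genotypes. Relb stood at 87.6 ± 5.71 TPM in KO and 72.3 ± 3.66 in WT, Tnfaip3 at 55.1 ± 11.6 and 47.5 ± 3.82, Nfkbie at 46.1 ± 3.03 and 28.8 ± 1.48, and Rel, the lowest, at 25.8 ± 5.53 and 12.2 ± 0.544. In KO cells the spreads of Tnfaip3 and Nfkbie overlapped between mice. Within each KO library Tnfaip3 was the higher (46.9 against 44.0 TPM in KO 1, 63.3 against 48.3 in KO 2).

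The make-up of the subunit pool is given as a description of transcripts, with no test. Nfkb2 held 29.0% of the summed TPM of the 5 subunits in KO 1 and 33.9% in KO 2, against 22.7% in WT 1 and 22.6% in WT 2. Nfkb1 held 33.4% and 31.3% in the KO libraries, against 42.5% and 39.4% in the WT libraries. Neither share overlapped between the genotypes, and nor did the shares of Rel and Relb given below. With 2 libraries per genotype this is common, as the levels of 63.0% of all genes tested did not overlap. The level of Nfkb1 itself did overlap (254 ± 15.4 TPM in KO and 249 ± 33.4 in WT), so its smaller share came with the larger sum. The shares of Rela (23.3% and 20.2% in KO, 21.2% and 23.8% in WT) overlapped, while Rel had 2.77% and 3.83% in KO and 1.96% and 2.06% in WT. The summed TPM of Nfkb2 and Relb, the genes of the non-canonical dimer, was set against that of Nfkb1, Rela and Rel. It was 0.684 and 0.809 times that sum in KO 1 and KO 2, against 0.524 and 0.533 times in WT 1 and WT 2. Relb held 11.6% and 10.8% of the subunit TPM in the KO libraries, against 11.7% and 12.2% in the WT libraries. Of this pair only Nfkb2 thus had a larger share in KO cells. The summed TPM of Nfkbia and Nfkbie was 0.441 and 0.536 times that of the subunits in the KO libraries and 0.410 and 0.444 times in the WT libraries, so these overlapped. Both sums were higher in KO cells (793 and 776 TPM for the subunits in KO, 641 and 571 in WT).

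**Figure D4:**
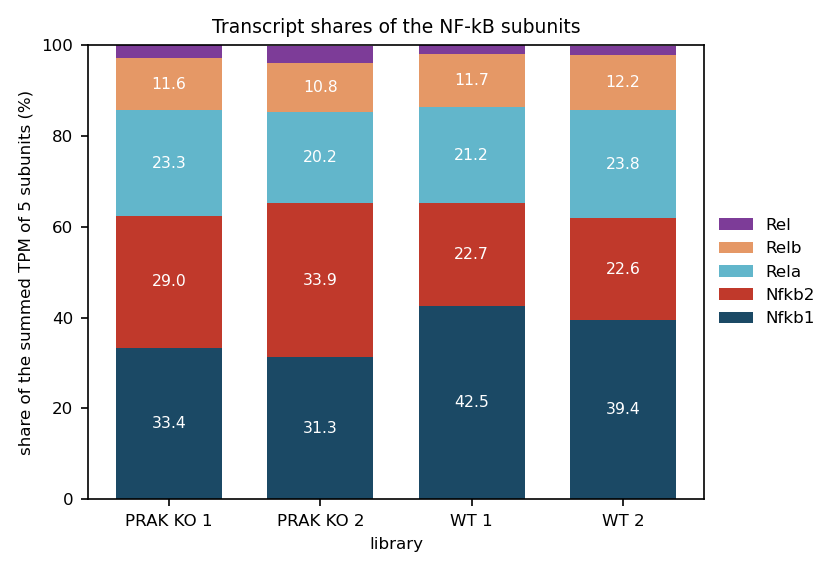
Share of each gene in the summed TPM of the 5 subunits, 1 bar per library with PRAK KO on the left. The Nfkb2 part is larger in both KO libraries (29.0% and 33.9%) than in both WT libraries (22.7% and 22.6%). The Nfkb1 part is smaller in KO, while its TPM overlaps between the genotypes.

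Genes whose values followed a member most closely over the 4 libraries were found among 8865 named genes of at least 10 CPM, by the root mean square difference of centred log2 CPM. The closest were Slfn8 to Rel (0.0392), Eif2d to Nfkb2 (0.0110), Zmiz2 to Nfkbie (0.0346), Sik2 to Nfkbia (0.0130) and Washc4 to Bcl3 (0.00998). Cep350 was closest to Nfkb1 (0.0192), Hnrnpc to Rela (0.00597), Ppp2r5b to Relb (0.00299) and Gprasp1 to Tnfaip3 (0.0158). Slfn8 has near-identical relatives, so its own count is uncertain. Among the members themselves Rela and Relb were the closest pair (0.0501), followed by Nfkbia and Nfkbie (0.101), and Nfkb2 was the closest to Rel (0.139). With 4 libraries many genes share a pattern, and these distances are descriptions.

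The rest of the pathway was read from 7 lists of 93 genes in all, every one of which passed the filter on low counts. Of these 19 rose and 3 fell, or 23.7% called beside 13.4% of all genes tested, and the calls sat mostly among IkB genes, ligands and target genes. Among the other IkB genes 2 of 4 rose (median log2 fold change 0.43). Nfkbid, which encodes a nuclear IkB protein that works with c-Rel in T cells, had 149 CPM (KO 1) and 168 CPM (KO 2), against 73.3 CPM (WT 1) and 68.0 CPM (WT 2). The difference was 1.17 ± 0.12 SE on the log2 scale (adjusted p = 0.00681), and it passed also without WT 1 (0.0206) and without WT 2 (0.0320). Nfkbib, the gene of IkB beta, stood at 116 and 127 CPM in the KO libraries, against 88.6 and 82.2 in the WT libraries (0.50, adjusted p = 0.0462, 0.302 without WT 1, 0.488 without WT 2 and 0.0526 with limma on log2(TPM + 1)).

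Of 12 genes of the IKK complex and its kinases 1 rose and 0 fell (median 0.18). This was Map3k7, the gene of the IKK-activating kinase TAK1, with 147 and 182 CPM in KO 1 and KO 2 against 96.4 and 94.3 in WT 1 and WT 2 (log2 fold change 0.79, adjusted p = 0.0256, 0.129 without WT 1 and 0.168 without WT 2). Of 12 genes for TRAF, cIAP and adaptor proteins 0 passed in the main edgeR fit or with DESeq2 (median 0.11), with 2 at an unadjusted p under 0.05. Of 15 genes for ubiquitin editing and other brakes 0 passed in the main edgeR fit (median -0.02), with 3 at an unadjusted p under 0.05 and 1 higher with DESeq2. With the mouse number as a block in edgeR, the TRAF list had 0 higher and 2 lower genes and the brakes 2 and 1. In that fit 23.1% of all genes passed. The counts of the 3 lists also rose when a KO library was left out. Without KO 1 the IKK list had 5 higher and 1 lower genes, the TRAF list 2 and 1, and the brakes 3 and 2, and without KO 2 they had 3 higher and 4 lower, 4 and 3, and 2 and 4. Of all genes tested 36.6% passed without KO 1 and 46.5% without KO 2, so many more calls were made throughout those fits. None of the 3 lists had a call without WT 1 or without WT 2, where 5.04% and 4.62% of all genes passed.

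Of 10 ligand genes 5 rose and 1 fell (median 1.37), and of 15 receptor genes 1 rose and 1 fell (median 0.48). These were 60% of the ligands and 13.3% of the receptors, beside 13.4% of all genes tested, so the receptors were at the background. Calls with a library left out are to be read beside the shares of all genes given above for those fits. Of the ligand genes 7 were higher and 2 lower without either KO library, and 3 were higher without either WT library, with 1 lower without WT 1 and 0 without WT 2. With DESeq2, which called 18.1% of all genes, 2 receptor genes were higher and 4 lower. Without WT 1 the receptors had 0 higher and 1 lower. Tnf had 149 CPM (KO 1) and 177 CPM (KO 2), against 70.2 CPM (WT 1) and 63.5 CPM (WT 2) (log2 fold change 1.28 ± 0.14 SE, adjusted p = 0.00738). Tnfsf8, the gene of CD30 ligand, had a log2 fold change of 2.01 (adjusted p = 0.0145) and Il1a, the gene of interleukin 1 alpha, one of 3.96 (adjusted p = 0.00892, 3.25 without KO 1). Ltb, which encodes the lymphotoxin beta chain whose receptor feeds the non-canonical route, fell to 123 CPM in KO 1 and 125 in KO 2, against 238 in WT 1 and 239 in WT 2. The fold change was -0.94 ± 0.11 SE on the log2 scale (adjusted p = 0.00867, but 0.0533 without WT 2). Tnfrsf9, the gene of the costimulatory receptor 4-1BB, fell by 1.84 on the log2 scale (adjusted p = 0.0185). Tlr2, a receptor of bacterial lipoproteins, lay at the threshold (1.22, adjusted p = 0.04996) with 4.99 and 5.17 CPM in KO 1 and KO 2 against 1.90 and 2.46 in WT 1 and WT 2. That call was lost without WT 1 (0.401) or WT 2 (0.264).

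Of 25 genes known as NF-kB targets 10 rose and 1 fell (median 0.65), or 44% called beside 13.4% of all genes tested. The list was chosen with earlier results of these data known. With WT 1 left out 7 rose and 1 fell, and with WT 2 left out 9 rose and 1 fell. DESeq2 gave 13 higher and 2 lower target genes, in a fit where 18.1% of all genes passed. The KO libraries held 279 and 297 CPM of the chemokine gene Ccl3, against 43.1 and 52.7 CPM in the WT libraries (log2 fold change 2.59, adjusted p = 0.00206). Ccl4, the gene of a related chemokine, stood at 119 and 153 CPM in the KO libraries, against 36.1 and 33.1 in the WT libraries (1.97, adjusted p = 0.00415). Gadd45b, a stress response gene, stood at 44.6 and 41.1 CPM in the KO libraries, against 15.0 and 14.9 in the WT libraries (1.52, adjusted p = 0.00461). Ier3, an early response gene linked to survival, was the one that fell with edgeR and all libraries, with 39.2 and 34.0 CPM in KO 1 and KO 2 against 125 and 127 in WT 1 and WT 2 (-1.79, adjusted p = 0.00284). The target genes thus did not all move one way, and 14 of the 25 did not pass.

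**Figure D5:**
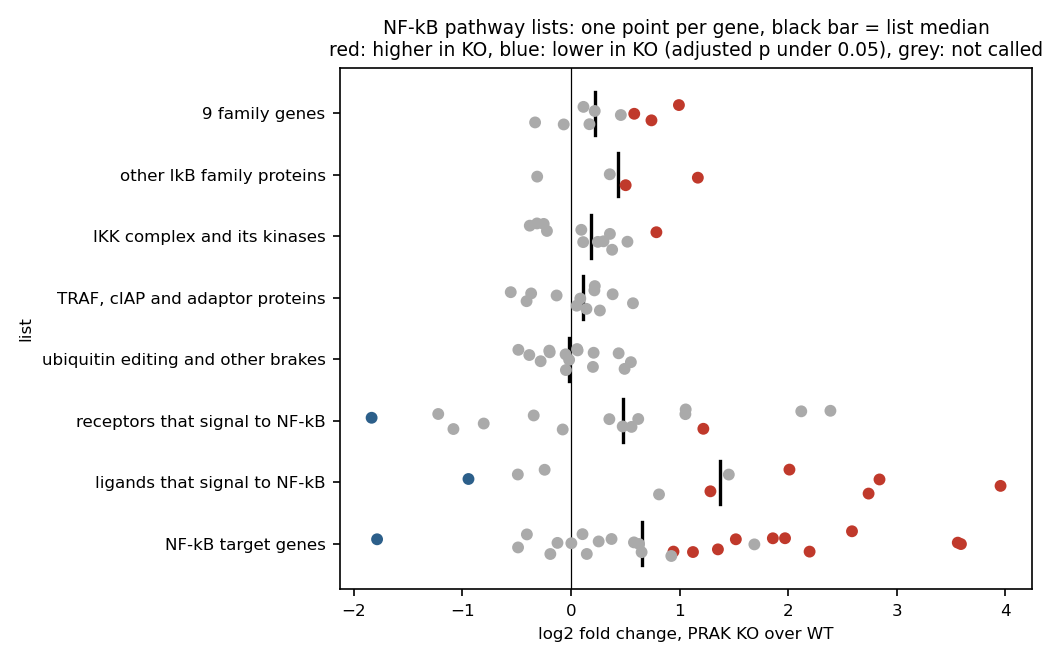
Log2 fold change of PRAK KO over WT for the 9 genes and the 7 pathway lists, 1 point per gene, with the list median as a black bar. Red points (higher) and blue points (lower) passed an adjusted p of 0.05, and they lie mostly among ligands and target genes.

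Summed levels of the markers of other cells were higher in both KO libraries than in both WT libraries. In bulk RNA more cells of a type and more RNA per cell cannot be told apart. Called were 42.9% of the myeloid and dendritic markers, 25% of the Th17, 14.3% of the CD8 T and NK, and 12.5% of the B cell and of the T cell markers. Beside the 13.4% of all genes tested, the CD8, B cell and T cell lists were thus near the background. Calls with a library left out are to be read beside the shares of all genes given above for those fits. T cell markers were abundant in every library, with a summed level of 3847 and 4148 TPM in KO 1 and KO 2, against 3835 and 3885 in WT 1 and WT 2, and 1 of 8 rose (2 higher and 5 lower without KO 2, 1 and 1 without KO 1, and 0 called with a WT library left out). Th17 markers summed to 5228 TPM in KO 1 but 1757 in KO 2, against 5035 in WT 1 and 4371 in WT 2, with 1 of 8 higher and 1 lower. The Th17 list had 1 higher and 6 lower without KO 1, 2 higher and 4 lower without KO 2, and 1 higher and 0 lower with either WT library left out. Myeloid and dendritic cell markers summed to 344 and 619 TPM in the KO libraries, against 228 and 248 in the WT libraries, with 6 of 14 higher and 0 lower (1 or 2 higher with WT 1 or WT 2 left out, and 11 or 9 with KO 1 or KO 2 left out). B cell markers summed to 133 and 116 TPM in the KO libraries, against 37.2 and 89.0 in the WT libraries, with 1 of 8 higher (5 without WT 2, and 1 higher and 1 lower without KO 2). Markers of CD8 T and NK cells summed to 1287 and 749 TPM in the KO libraries, against 278 and 501 in the WT libraries, with 1 of the 7 tested higher (0 without WT 1 and 2 without WT 2). No marker was at 0 in every library. Rel, Nfkb2 and Nfkbie were higher in KO 2 than in KO 1, as were the myeloid and T cell sums, while the Th17, B cell and CD8 sums were higher in KO 1. The part of these cells in the levels of the NF-kB genes was not tested.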

How the data were processed

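RNA sequencing measured gene expression in 4 libraries, 2 of PRAK KO and 2 of WT Th17 cells. Per the file headers, the authors deposited expected counts (estimated reads per gene, not normalised), TPM and FPKM, the last 2 scaled by the authors to length and library, and FPKM was not used. RSEM 1.2.12, Bowtie2 2.2.5 and HISAT2 2.0.4, and the build GRCm38.p6, are named in the submitters' processing notes without their roles. Kit, strand and annotation were not given in the sources used here.

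Expected counts were rounded, filtered with filterByExpr (minimum count 10, total 15), which left 12680 of 17921 genes, and scaled with TMM factors. KO was compared with WT in edgeR 4.0.16 (R 4.3.3) with the robust quasi-likelihood test over all genes and Benjamini-Hochberg adjustment. All adjusted p-values are from that fit where no other tool is given, and genes under 0.05 are said to have risen or fallen. Standard errors come from the fold change and F statistic, and 95% intervals cover single genes. Residual degrees of freedom were 2, with a median prior of 3.58. The steps were run on simulated data with the same spread in both genotypes, which these libraries did not have. Alternatives used DESeq2 1.42.0 and limma 3.58.1.

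The members and lists were chosen with earlier results of these data known. Named genes are all members, Mapkapk5, list members that passed (at most 3 in each direction, by p) and each member's closest gene. One of the lists planned is not reported here.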

Additional observations from a re-analysis of the deposited data

How the results depend on the processing

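Over 99 values of the 9 genes under 11 alternatives, 81 kept direction and side of the threshold, 6 lost their call, 7 gained one and 5 turned sign. The 3 called genes kept their direction in all 33 of theirs and their call in 27. The log2 fold change of Nfkb1 turned positive with library size alone (0.031), with limma on log2(TPM + 1) (0.035) or log2(TPM + 0.1) (0.035) and, over the libraries left out, ran between -0.18 and 0.062 (without WT 1). That of Tnfaip3 ran between -0.18 (without KO 2) and 0.36. The cause was not tested. Leaving out 1 library, the genes called were 0 to 6 of the 9, 14 to 62 of the 93 pathway genes and 586 to 5894 of all genes (1695 with all libraries), fewest without a WT library. DESeq2 called 33 pathway genes in place of 22. The labels do not say whether same-numbered mice were paired across genotypes, and same-numbered deviations had a correlation of 0.214 across genes. With the replicate block 4 of the 9 were called (Nfkbia added, adjusted p = 0.0483), 38 pathway genes and 2935 of all genes. With library size as the only scaling the median over all genes tested was 0.12 (log2) in place of 0.02, and there were 918 higher and 864 lower calls in place of 652 and 1043, while the same number of the 9 genes (3) was called. Expected counts per member lay far above the filter, and how far depth limits the precision beside the number of mice was not compared.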
